A study of Mus musculus with 8 samples.

Results

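Open chromatin was compared over 6 mouse genes whose human counterparts carry inherited or common risk of diabetes: Hnf4a, Tcf7l2, Wfs1, Glis3, Cdkal1 and Igf2bp2. The members were every accessible region (peak) that touched the body of one of these genes or the 25 kb on either side of it, with gene bodies from the GRCm38.p6 annotation. That gave 117 of the 100264 peaks listed for cells with the empty vector and 142 of the 128726 peaks listed for cells with Klf4. The cells were MIN6, an established mouse insulinoma line with beta cell features and a wild-type genotype in the labels, in all 8 libraries, which the labels give as ATAC-seq of genomic DNA. The labels' protocols name an mRNA-seq library kit beside an ATAC-seq kit, and its role is not given in the sources used here. Of the libraries, 4 were from cells transfected with the empty plasmid pcDNA 3 and 4 with pGloMyc-Klf4, which supplies the zinc finger factor Klf4, and each transfection ran for 48 hours. The deposited peaks come as 2 merged lists, 1 for each plasmid, so each measure has 1 value per plasmid, no spread between replicates and no test. Whether libraries were merged before or after peaks were called is not given in the sources used here, so it is not known whether the strengths, widths and ranks below are those of pooled reads. The read depth behind the lists is unknown, and it and the plasmid cannot be told apart as sources of a difference in peak number. The share of cells that took up a plasmid and the promoter that drives Klf4 are not given in the sources used here, and the plasmid backbones have different names.

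ATAC-seq reads out where a transposase can insert into DNA, which marks nucleosome-poor promoters and enhancers. In beta cells such sites are bound by a network of transcription factors that keep insulin production and secretion running, and inherited loss of several of these factors causes diabetes. HNF4A is one of them: its loss of function causes a maturity-onset form of diabetes of the young, and the gene has an upstream promoter that is used in beta cells and a downstream one that is used in liver. TCF7L2, a partner of beta-catenin in Wnt signalling, holds the best-known common risk locus for type 2 diabetes, and GLIS3, a zinc finger factor, is linked to both neonatal and common diabetes. WFS1 is a membrane protein of the endoplasmic reticulum whose loss causes Wolfram syndrome. CDKAL1 modifies a transfer RNA and IGF2BP2 binds messenger RNAs, and both lie at common risk loci.

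The promoters of Hnf4a and Tcf7l2 are printed because they hold the starts at which the lists differed. Each window runs from 250 bases before to 50 bases after an annotated start, is taken from RefSeq on GRCm38.p6, and reads 5′ to 3′ on the plus strand. The 6 genes had 8 annotated starts, 2 each for Hnf4a and Tcf7l2 and 1 for each of the others. Capitals mark CACCC or GGGTG, a core that KLF factors bind, GGGCGG or CCGCCC, the GC box, and GTTAAT or ATTAAC, part of the HNF1 site, searched on both strands. Overlapping matches run together, as the GC box and GGGTG do once at the first Hnf4a start.
Hnf4a, upstream start, chr2:163506607-163506906: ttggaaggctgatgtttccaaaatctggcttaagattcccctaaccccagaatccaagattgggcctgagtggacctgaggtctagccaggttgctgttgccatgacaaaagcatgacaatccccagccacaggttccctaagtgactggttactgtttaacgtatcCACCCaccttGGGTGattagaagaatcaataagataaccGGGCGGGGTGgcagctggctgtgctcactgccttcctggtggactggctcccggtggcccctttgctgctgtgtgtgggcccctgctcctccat
Hnf4a, downstream start, chr2:163546905-163547204: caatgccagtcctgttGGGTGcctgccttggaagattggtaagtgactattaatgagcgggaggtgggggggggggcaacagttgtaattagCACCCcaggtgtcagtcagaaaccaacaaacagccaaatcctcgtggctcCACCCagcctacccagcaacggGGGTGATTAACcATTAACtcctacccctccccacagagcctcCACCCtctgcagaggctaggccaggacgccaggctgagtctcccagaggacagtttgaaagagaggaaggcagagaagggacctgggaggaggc
Tcf7l2, first start, chr19:55741560-55741859: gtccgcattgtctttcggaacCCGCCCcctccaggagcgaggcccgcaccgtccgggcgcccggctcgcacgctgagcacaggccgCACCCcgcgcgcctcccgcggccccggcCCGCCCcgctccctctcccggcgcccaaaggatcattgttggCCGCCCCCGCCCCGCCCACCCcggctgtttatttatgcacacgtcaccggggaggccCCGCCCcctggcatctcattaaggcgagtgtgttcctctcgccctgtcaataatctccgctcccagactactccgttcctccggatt
Tcf7l2, internal start, chr19:55895071-55895370: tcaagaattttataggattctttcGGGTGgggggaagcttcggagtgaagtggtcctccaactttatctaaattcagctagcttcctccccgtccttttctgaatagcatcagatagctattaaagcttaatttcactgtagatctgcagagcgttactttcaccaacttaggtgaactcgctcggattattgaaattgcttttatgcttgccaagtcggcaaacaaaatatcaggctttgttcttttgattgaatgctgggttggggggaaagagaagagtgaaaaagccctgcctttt

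The CACCC core was present 3 times at the upstream Hnf4a start and 5 times at the downstream one, 2 times at the first Tcf7l2 start and 1 time at the internal one. At least 1 such core is found in 59.5% of 21262 coding promoters of this length. The first Tcf7l2 start held 6 GC boxes, a motif in 46.2% of coding promoters, 1 of them overlapping a CACCC core. The downstream Hnf4a start alone among these 4 held HNF1 letters, 2 times, and 6.25% of coding promoters hold 1 or more. Base composition differed as well, with 70.0% G and C at the first Tcf7l2 start, 57.3% and 54.0% at the Hnf4a starts and 42.0% at the internal Tcf7l2 start. Of the other members, Wfs1 held 1 core and 4 GC boxes, Igf2bp2 1 and 2, Glis3 0 and 3, and Cdkal1 neither. A match to these letters is a description of the sequence and not evidence of binding.

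Peaks at genes that define cell types were checked against the label. All 6 beta cell genes (Ins1, Ins2, Pdx1, Nkx6-1, Mafa and Slc2a2) had a peak in the gene body in both lists, and the annotated starts of Ins1, Pdx1 and Nkx6-1 were covered in both. The annotated start of Slc2a2 was covered in neither. The alpha cell genes Gcg and Irx2 also had one in both lists, and so did the start of Gcg, the glucagon gene. Of the 3 exocrine genes Cpa1 had no peak in its body in either list, Cela1 had 4 in each, and Krt19 had 0 with the empty vector and 1 with Klf4. Peaks do not measure RNA, and alpha cell genes were not told apart from beta cell genes by them. Per chromosome, the share of Klf4 peaks with no empty vector peak ran from 34.1% on chromosome 13 to 40.4% on chromosome 5 among the 5 chromosomes that hold these genes.

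Over the 6 genes together the lists differed by about as much as they did over the genome, and 19 of the 51 peaks found with Klf4 alone lay at Tcf7l2. A peak is called matched when a peak of the other list shares at least 1 bp with it, gained when it is in the Klf4 list alone, and lost when it is in the empty vector list alone. Of 142 Klf4 peaks, 91 were matched and 51 gained (35.9%, 95% Wilson interval 28.5 to 44.1%), against 36.7% of all Klf4 peaks. Of 117 empty vector peaks, 91 were matched and 26 lost (22.2%, interval 15.6 to 30.6%), against 18.8% of all empty vector peaks. Both member shares were thus near the background. The intervals allow for counting error alone and treat peaks as independent, which close neighbours are not. Together the empty vector peaks covered 66161 bp (mean 565 bp a peak) and the Klf4 peaks 78288 bp (mean 551 bp), a ratio of 1.18 against 1.28 over the whole lists. Without Tcf7l2 the gained share was 32 of 120 peaks (26.7%, interval 19.6 to 35.2%) and the ratio of covered lengths 1.04. Over all 6 genes, with only the top 20000 peaks of each list, the ratio turned to 0.734 and 0 of 10 Klf4 peaks were gained.

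**Figure D1:**
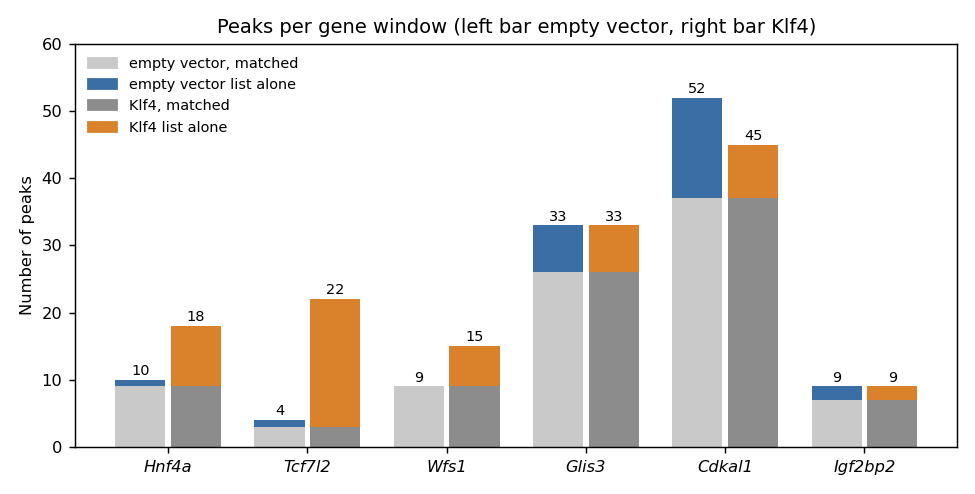
Number of peaks in each gene window, which adds 25 kb to either end of the body, with the empty vector (left bar, blue for peaks of that list alone) and with Klf4 (right bar, orange for peaks of that list alone). Tcf7l2 goes from 4 to 22 peaks, Hnf4a from 10 to 18 and Wfs1 from 9 to 15, while Glis3 has 33 in both, Igf2bp2 9 in both and Cdkal1 52 and 45.

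At Hnf4a, which encodes a nuclear receptor of the beta cell network, the upstream promoter was accessible with both plasmids and the downstream promoter was in a peak with Klf4 alone. The gene lies on chromosome 2 from 163506811 to 163572907 on the plus strand, and its window held 10 empty vector peaks covering 6787 bp and 18 Klf4 peaks covering 10976 bp. All but 1 of the empty vector peaks were matched, and 9 of the 18 Klf4 peaks were gained (50%, interval 29.0 to 71.0%). Gained peaks were thus as many as matched ones here, and in the 1 Mb on either side they made up 33.96% (left) and 44.7% (right). The interval of Hnf4a held both of these shares and the 36.7% of all Klf4 peaks.

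The upstream start, position 163506857, lay in chr2:163506471-163507224 with the empty vector, where this was the strongest of the 10 peaks (−log10 q 52.5, rank 13158 of 100099 in its list). The Klf4 peak over it, chr2:163506403-163507328, stood at 54.8, rank 10443 of 128538. Here −log10 q is the peak caller's measure of confidence, and it is read within a list and not compared between lists. Fold enrichment and −log10 q are the authors' own values for each peak. Both peaks covered the whole 300 base promoter window printed above.

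The downstream start, position 163547155, had no empty vector peak within 5000 bp. With Klf4 it lay in a gained peak of 507 bp, chr2:163547011-163547517, with a −log10 q of 14.1, a fold enrichment over local background of 5.24 and rank 38697. That peak covered 64.7% of the printed window. Of 21262 annotated starts of coding genes, 6.85% were in a Klf4 peak and in no empty vector peak, and 56.5% were covered in both lists. Over the 8 starts of the 6 genes these counts were 1 and 5.

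The strongest gained peak of Hnf4a was another one, chr2:163515667-163516074 (408 bp, −log10 q 24.0), in the gene body 9.01 kb past the upstream start. Other gained peaks with a −log10 q of at least 5 in the gene body were chr2:163552623-163552939 at 15.9 and chr2:163543950-163544297 at 6.18. Beyond the gene's far end they were chr2:163590309-163590725 at 7.28 and chr2:163595153-163595455 at 6.20. The annotation table has no exons, so exonic and intronic positions are not told apart. The lost peak, chr2:163493750-163494429 (680 bp, −log10 q 6.13), lay in the upstream flank over R3hdml, a neighbouring gene. A long noncoding RNA gene, Hnf4aos, spans the upstream flank and part of the body, and 6 empty vector and 7 Klf4 peaks touched it.

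Matched peaks at Hnf4a also differed in extent. The empty vector peak chr2:163525731-163526059 was 329 bp wide and its Klf4 partner, chr2:163525771-163527293, 1523 bp. In the upstream flank a peak of 222 bp, chr2:163501017-163501238, was matched by one of 1394 bp, chr2:163499846-163501239. The strongest Klf4 peak of the window, chr2:163481474-163482208 (−log10 q 75.9), straddled its outer edge and was matched by an empty vector peak at 47.9. Covered length over Hnf4a was 0.66 higher with Klf4 on the log2 scale, with 500 bp added to both lengths, which passes the 1.5-fold size used here as a call. The call was lost with windows of 50 kb (0.37), with peaks of at least 500 bp (0.38), at a −log10 q of at least 20 (0.37) and with the top 20000 peaks of each list (0.08).

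**Figure D2:**
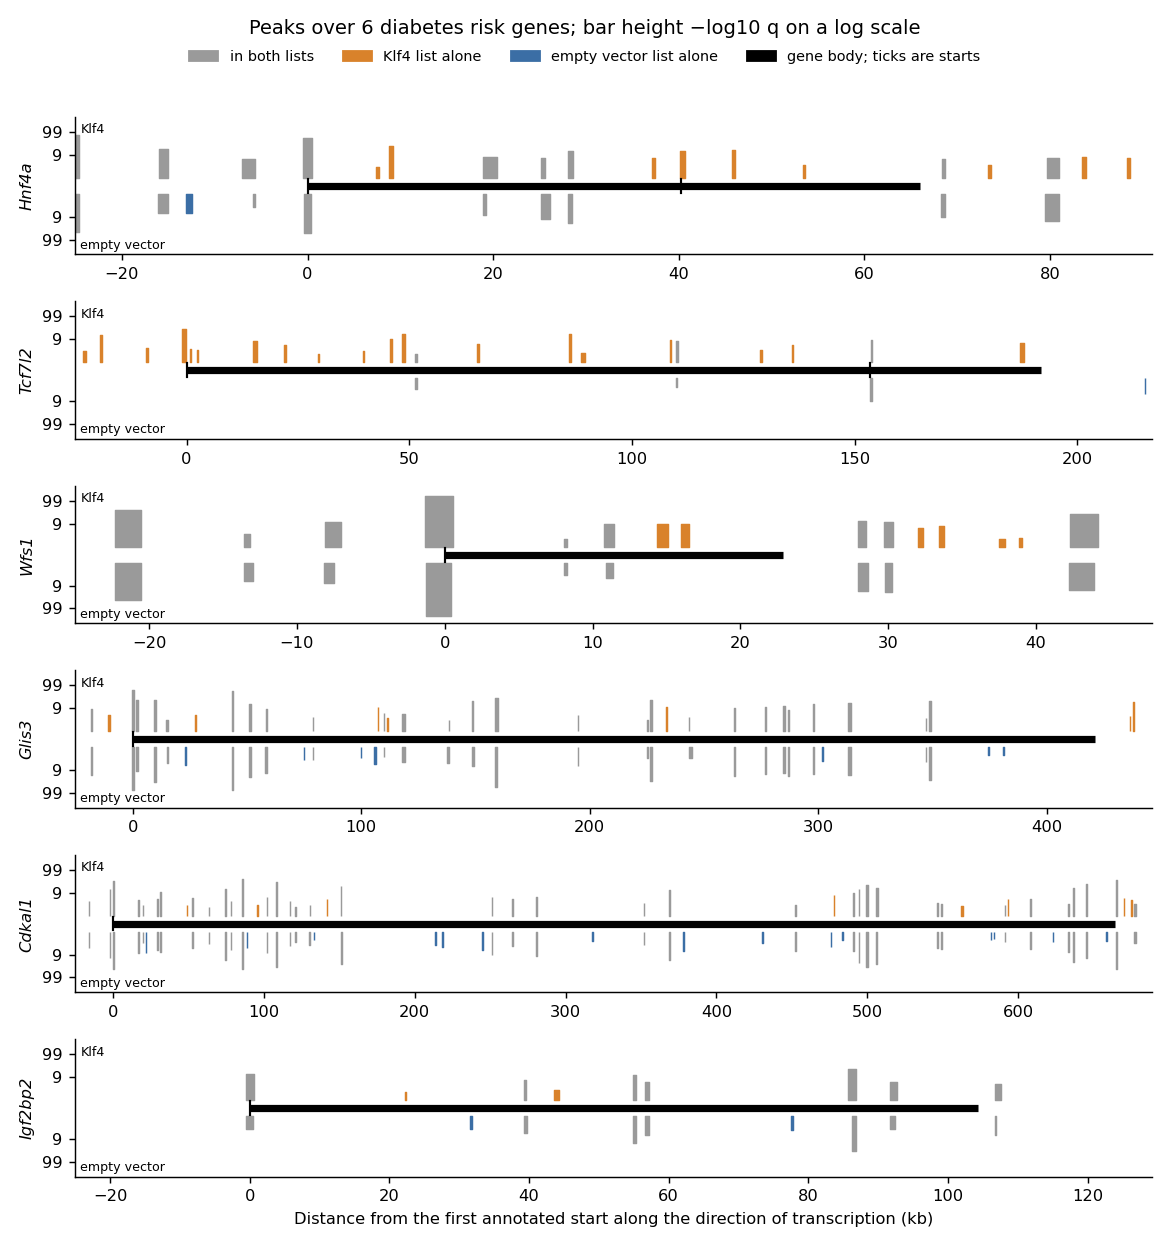
Peaks over each gene by distance from its first annotated start in kb, with Klf4 above and the empty vector below the gene body (black), peak width to scale with a thin outline and bar height the −log10 q of the list itself on a log scale. Orange peaks crowd the left part of Tcf7l2 and stand over the second start of Hnf4a, whereas grey matched peaks dominate Glis3, Cdkal1 and Igf2bp2.

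Tcf7l2, the Wnt pathway factor, showed the largest difference among the 6 genes: nearly all of its Klf4 peaks had no counterpart. It lies on chromosome 19 from 55741797 to 55933659 on the plus strand. With the empty vector its window of 242 kb held 4 peaks covering 1327 bp, a density of 1.65 peaks per 100 kb, against a median of 6.27 over coding genes. With Klf4 it held 22 peaks covering 10674 bp, or 9.10 per 100 kb, against a median of 8.08. The mean width was 332 bp in the former list and 485 bp in the latter.

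Of the 22 Klf4 peaks at Tcf7l2, 3 were matched and 19 gained (86.4%, interval 66.7 to 95.3%). Among 6947 coding genes with at least 10 Klf4 peaks in their window, 0.417% (29 genes) had a gained share at least as large, a comparison chosen after the value was seen. The log2 ratio of covered lengths was 2.61, rank 68 from the top of 21883 coding genes. It stayed past 1.5-fold, at 1.76 to 2.92, under each alternative that left the gene a peak in both lists. At a −log10 q of at least 20 (1.43) and with peaks of at least 500 bp (3.67) the empty vector list had 0 peaks left, so those values are set by the added 500 bp. With the top 20000 peaks of each list no peak was left in either.

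The empty vector peaks of Tcf7l2 were weak. The strongest, chr19:55895320-55895750, stood at a −log10 q of 8.97, rank 49564 of 100099. The other 3 lay between 1.39 and 4.14. Around the first start, position 55741810, the nearest empty vector peaks were 97.9 kb to the left and 51.2 kb to the right. The first start thus lay in a stretch of 149 kb without a called peak.

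The strongest Klf4 peak of the gene, chr19:55740853-55741698 (846 bp, −log10 q 26.8, fold enrichment 6.85, rank 21480), fell in this stretch. It ended 112 bp short of the first start and covered 46.3% of the printed promoter window, on its upstream side. Other gained peaks with a −log10 q above 10 were chr19:55722433-55722916 at 14.2, which lies 19.1 kb upstream, and in the gene body chr19:55790191-55790853 at 15.7 and chr19:55827722-55828119 at 16.6. A further 5 gained peaks lay in the body at 5.27 to 9.66. These were chr19:55756725-55757700, chr19:55787516-55788022, chr19:55807078-55807579, chr19:55850382-55850669 and chr19:55928941-55929856. A long noncoding RNA gene, Gm31734, spans the first start and held 0 empty vector and 2 Klf4 peaks. The remaining 10 gained peaks were below 5, and the widths of all 19 ran from 172 to 976 bp.

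The internal start of Tcf7l2, position 55895321, went the other way by a shift of an edge. With the empty vector the peak began 1 base before this start, at 55895320. Its Klf4 partner, chr19:55895460-55895758, began 139 bp past the start, at a −log10 q of 8.37. The start therefore counted as covered in the empty vector list alone although the peak was matched.

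Gained peaks were also common around Tcf7l2, over 1 Mb more so beyond its 3′ end than on the other side, but not evenly with distance. In the 1 Mb to the right of the window there were 30 empty vector and 85 Klf4 peaks, and 62 of the latter were gained (72.9%, interval 62.7 to 81.2%). In the 1 Mb to the left there were 58 and 65 peaks, of which 17 of 65 were gained (26.2%, interval 17.0 to 38.0%). Nearer the gene the order was the other way in 2 spans of unequal length with few peaks. These spans were chosen after the counts were seen and are measured from the left end of its body. From 250 to 50 kb to the left 8 of 12 Klf4 peaks were gained, and from 250 to 550 kb to the right 1 of 6. The stretch from 200 to 250 kb, just past the 3′ end and in neither span, held 4 Klf4 peaks, of which 2 were gained. From 550 to 1200 kb to the right 57 of 72 were gained. By gene, 9 of the 11 coding genes to the right had more than 1.5 times the covered length with Klf4 and 0 of the 6 to the left did, against 23.0% of all coding genes. To the right the log2 ratios ran from 0.28 to 2.75, with a median of 1.42. To the left they ran from −0.34 to 0.28, with a median of 0.20. These genes have overlapping windows and are not independent.

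**Figure D3:**
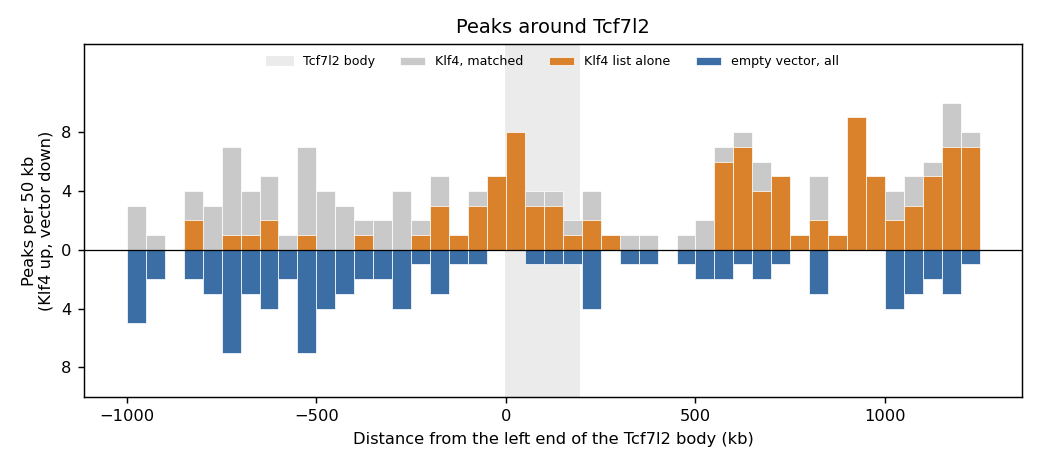
Peaks per 50 kb by distance from the left end of the Tcf7l2 body in kb, Klf4 upward (orange for gained peaks, grey for matched ones) and empty vector downward (blue). Far to the left the bars mostly mirror each other, orange bars prevail from 250 kb left of the gene through its body, and again to the right from 550 kb after a stretch with few peaks in either list.

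Glis3, a zinc finger factor that acts on the insulin gene, kept most of its peaks, as the whole list did, and covered slightly less with Klf4. It lies on the minus strand of chromosome 19 from 28258851 to 28680265, in a window of 471 kb. Both lists had 33 peaks there, of which 26 were matched, 7 lost and 7 gained (21.2% in each direction, interval 10.7 to 37.8%). Over the whole lists 36.7% of Klf4 peaks were gained and 18.8% of empty vector peaks lost. In the 1 Mb to the left of the window 33.3% of Klf4 peaks were gained and in the 1 Mb to the right 28.2%. The interval held each of these shares. Covered length went from 20321 bp under the empty vector to 17123 bp under Klf4, a log2 ratio of −0.24, with mean widths of 616 and 519 bp. With the top 20000 peaks of each list, 4 and 2 peaks were left, and the ratio passed 1.5-fold downward at −0.97.

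All 7 lost peaks of Glis3 were weak, with a −log10 q from 1.16 to 4.77. Among the gained ones 3 were above 5: chr19:28242040-28242479 at 17.0 beyond the 3′ end, and chr19:28572622-28572818 at 10.8 and chr19:28446388-28446799 at 10.6 in the body. The start, position 28680077, lay in a peak in both lists, chr19:28679295-28680359 at 71.8 with the empty vector and chr19:28679313-28680366 at 63.0 with Klf4. The latter was the strongest Klf4 peak of the gene. With the empty vector a site in the body, chr19:28636056-28636484 at 73.0, was marginally stronger than the start, and its Klf4 partner stood at 53.1. A long noncoding RNA gene, D930032P07Rik, overlaps the start and held 3 and 4 peaks. The body site had the highest fold enrichment of all member peaks in both lists, 10.5 and 10.9.

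Wfs1, the endoplasmic reticulum protein, had the strongest promoter peak of the 6 genes in both lists and gained peaks elsewhere. It lies on the minus strand of chromosome 5 from 36966104 to 36988982. The start, position 36988982, was covered by chr5:36988527-36990274 with the empty vector (1748 bp, −log10 q 205, rank 1204) and by chr5:36988434-36990302 with Klf4 (1869 bp, −log10 q 160, rank 1283). The window held 9 and 15 peaks covering 8257 and 11640 bp, a log2 ratio of 0.47, with mean widths of 917 and 776 bp. All 9 empty vector peaks were matched, so none was lost (0 of 9, interval 0 to 29.9%).

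The 6 gained peaks of Wfs1 made up 40% of its Klf4 peaks (interval 19.8 to 64.3%). In the gene body they were chr5:36973864-36974589 at a −log10 q of 8.92 and chr5:36972484-36972966 at 9.04. Beyond the 3′ end they were chr5:36956627-36956960 at 5.43 and chr5:36955187-36955567 at 6.91, while 2 below 5 lay over the neighbouring gene Ppp2r2c. In the 1 Mb on either side the gained shares were 45.7% and 46.3%, and both lie inside the interval of Wfs1. The log2 ratio passed 1.5-fold in the gene body alone (0.90), with windows of 50 kb (0.72) and at a −log10 q of at least 20 (0.60).

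Cdkal1, which encodes a transfer RNA methylthiotransferase, lost more peaks than it gained. The gene is the longest of the 6, on the minus strand of chromosome 13 from 29191746 to 29855683, in a window of 714 kb. There were 52 empty vector peaks covering 25265 bp and 45 Klf4 peaks covering 21620 bp, a log2 ratio of −0.22, with mean widths of 486 and 480 bp. In all 37 peaks of each list were matched, 15 were lost (28.8%, interval 18.3 to 42.3%) and 8 gained (17.8%, interval 9.29 to 31.3%). In the 1 Mb to the left of the window 16.3% of Klf4 peaks were gained and in the 1 Mb to the right 42.0%. The gained share of Cdkal1 was below the 36.7% of the whole list and the lost share above its 18.8%. Both intervals held the median of 25% gained and 25% lost among the 434 coding genes with windows of at least 400 kb, the class of Cdkal1. With the top 20000 peaks of each list, 5 and 4 peaks were left, and the log2 ratio passed 1.5-fold downward at −0.61.

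The strongest empty vector peaks of Cdkal1 were those at its ends. The start, position 29855673, lay in chr13:29855203-29855884 at a −log10 q of 42.8, and chr13:29190508-29190960, just beyond the 3′ end, stood at 42.7. With Klf4 the strongest was a site in the body, chr13:29769696-29770088 at 37.1, and the start peak, chr13:29855211-29855741, stood at 33.0. The start peak was 682 bp wide in the former list and 531 bp in the latter, and it covered 87.0% and 39.3% of the 300 base promoter window. Lost peaks above 5 were chr13:29833786-29834013 at 7.97, chr13:29477378-29477698 at 6.08 and chr13:29610085-29610826 at 5.52, all in the body. The gained peak above 5 was chr13:29377557-29377888 at 7.03.

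Igf2bp2, the RNA-binding protein, had the same number of peaks in both lists and a larger mean peak width with Klf4. It lies on the minus strand of chromosome 16 from 22059009 to 22163299, and its window held 9 peaks in each list, of which 7 were matched, 2 lost and 2 gained. Klf4 peaks covered 6255 bp against 4204 bp with the empty vector (log2 ratio 0.52), with a mean width of 695 bp against 467 bp. Of the 7 matched pairs 4 were wider with Klf4 and 3 narrower. The strongest peak in both lists began at the same base, chr16:22076501-22077046 at 31.5 and chr16:22076501-22077645 at 22.3, and was 546 bp wide in the first and 1145 bp in the second.

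The Igf2bp2 start, position 22163299, lay in a weak peak with the empty vector, chr16:22162756-22163787 (−log10 q 2.49, rank 85245 of 100099). With Klf4 it lay in chr16:22162630-22163787 (−log10 q 13.04, rank 41466 of 128538). At a −log10 q of at least 5 this start, like the downstream one of Hnf4a, counted as covered with Klf4 alone. The gained and lost peaks of this gene were all below 5. With peaks of at least 500 bp, or a −log10 q of at least 5 or 20, the log2 ratio passed 1.5-fold, at 0.97, 1.22 and 0.65.

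Matched peaks were more often narrower with Klf4 over these genes, above all at the long genes Glis3 and Cdkal1. All 91 matched peaks formed pairs of 1 peak in each list. With Klf4 31 were wider (34.1%, interval 25.2 to 44.3%) and 60 narrower, against 46.9% wider and 52.5% narrower among the 79834 such pairs of the lists. At Glis3 20 of 26 were narrower and at Cdkal1 27 of 37. At Hnf4a and Wfs1 5 of 9 were wider in both cases, at Igf2bp2 4 of 7, and at Tcf7l2 1 of 3. The largest narrowing was at Glis3, where chr19:28435367-28436736, a peak of 1370 bp at a −log10 q of 2.01, was matched by one of 182 bp.

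**Figure D4:**
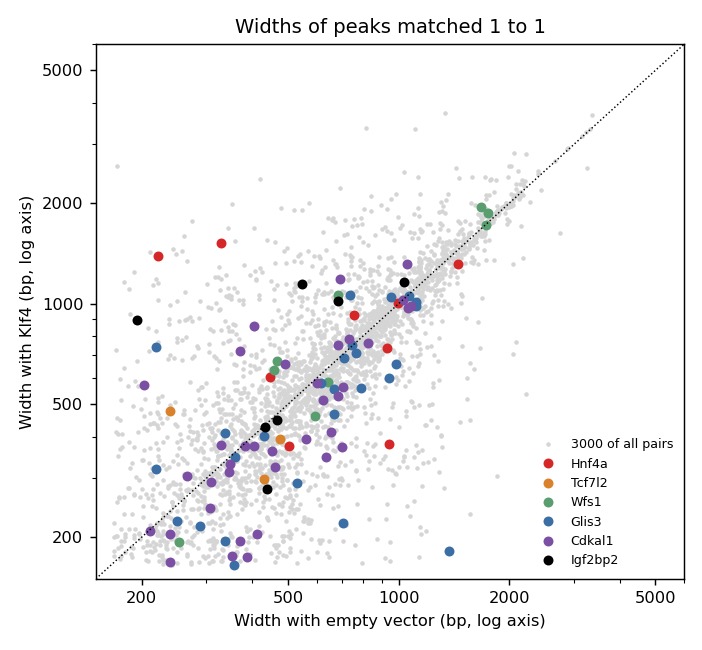
Width of each matched pair with the empty vector (x axis) and with Klf4 (y axis), in bp on log axes, with members in colour, 3000 of the 79834 pairs of the whole lists in grey and a dotted line at equal width. Most Glis3 and Cdkal1 pairs lie below the line, and 2 Hnf4a pairs lie far above it.

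The class of the longest genes departed from the others. Among the 434 coding genes with windows of at least 400 kb the median log2 ratio was 0.01, and 45.9% had less covered length with Klf4. Glis3 and Cdkal1 are among these genes. In windows of 100 to 200 kb, which include those of Hnf4a and Igf2bp2, the median was 0.22 and 25.6% were lower, and in windows under 100 kb it was 0.21 with 17.9% lower. Tcf7l2 belongs to the class of 200 to 400 kb, where the median was 0.18, 29.1% were lower and 18.8% of 1026 genes passed 1.5-fold upward. Genes with equal covered length in both lists count as neither higher nor lower. What length stands for here was not tested.

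Over the members the log2 ratios thus ran from −0.24 to 2.61, with a median of 0.50 against 0.21 over 21883 coding genes. Past 1.5-fold, 2 of 6 were higher (Hnf4a and Tcf7l2), against 23.0% of coding genes, and 0 were lower, against 1.54%. The order was Tcf7l2, Hnf4a, Igf2bp2, Wfs1, Cdkal1 and Glis3. With 1 value per plasmid no neighbours in this order could be told apart.

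Other genes of inherited diabetes passed 1.5-fold in a share near that of coding genes at large. All 34 listed genes were found, with a median log2 ratio of 0.26; 24 were higher and 10 lower, 6 passed 1.5-fold upward (17.6%, against 23.0%) and 0 downward. The farthest upward were the potassium channel gene Kcnk16 (2718 to 6938 bp, log2 ratio 1.21) and the developmental factor genes Gata4 (4227 to 9348 bp, 1.06) and Ptf1a (2005 to 4284 bp, 0.93). The lowest were the ATP-sensitive potassium channel gene Kcnj11 (6642 to 5719 bp, −0.20) and the chaperone gene Dnajc3 (5914 to 5106 bp, −0.19). In peak numbers Kcnk16 went from 5 to 6 and Gata4 from 6 to 14. Kcnj11 and Dnajc3 covered less but also had more peaks, 5 to 8 and 8 to 9.

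Genes named for common risk loci also passed 1.5-fold in a share near the background. Of 40 listed, 39 were found, with a median log2 ratio of 0.16; 32 were higher and 7 lower, 10 passed 1.5-fold upward (25.6%) and 1 downward. Hmga2, a chromatin protein gene, went from 0 peaks to 2 peaks covering 2677 bp with Klf4. Kcnq1, an imprinted potassium channel gene, went from 13 to 41 peaks and from 8224 to 26315 bp (1.62), with 29 of its 41 Klf4 peaks gained. Adamts9, a protease gene, went from 5 to 6 peaks and from 1304 to 3620 bp (1.19). At the low end Klf14, a gene of the Klf family, had 2 peaks covering 1036 bp with the empty vector and none with Klf4. The receptor phosphatase gene Ptprd went from 31 to 24 peaks and from 16918 to 13143 bp (−0.35), and the kinase gene Dgkb from 24 to 19 peaks and from 14339 to 12107 bp (−0.24).

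**Figure D5:**
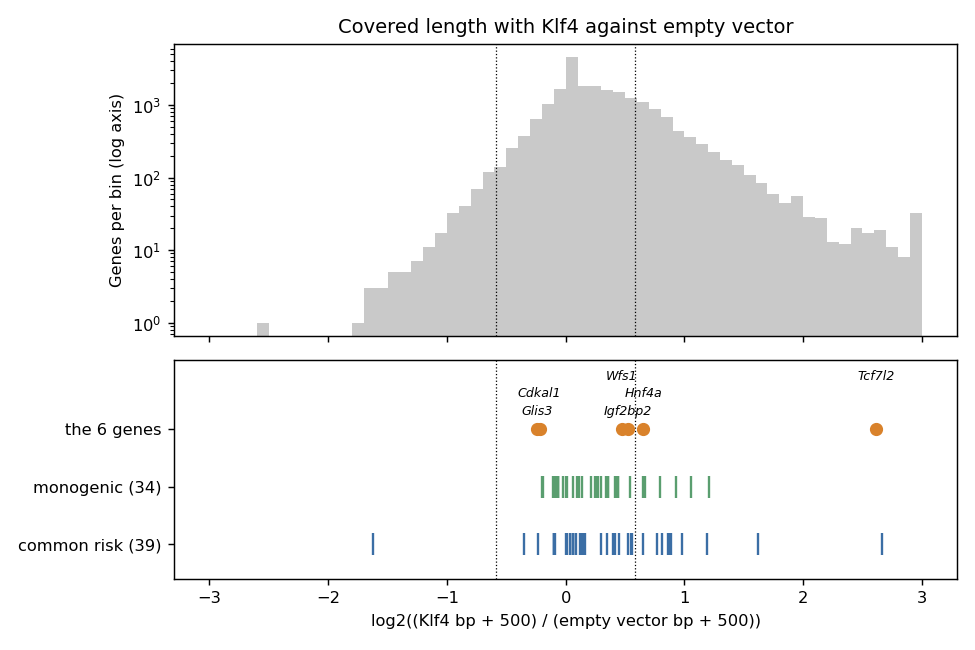
Log2 ratio of covered length, Klf4 over empty vector with 500 bp added to both, for 21883 coding genes (top, genes per bin on a log axis, values past 3 in the end bins) and for the 6 genes and both gene lists (bottom, 1 mark a gene). Dotted lines mark 1.5-fold; Tcf7l2 at 2.61 lies near the upper end of the distribution and 4 of the 6 genes lie between the lines.

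Among the listed genes, the one most like each member was taken as that with the nearest pair of peak numbers, by distance in log2 of the number plus 1 over the 2 lists. For Tcf7l2 it was Notch2, a receptor gene, with 7 and 17 peaks at a distance of 0.76. For Wfs1 it was the kinase gene Blk with 8 and 15 (0.15), and for Igf2bp2 the insulin receptor gene Insr and the adaptor gene Grb14 tied, both with 9 and 9 (0). For Glis3 it was Macf1 with 25 and 30 peaks (0.41) and for Cdkal1 Jazf1 and Ptprd tied, both with 31 and 24 (1.14). No listed gene came close to Tcf7l2 or to Cdkal1, and the distance was larger for Cdkal1.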

How the data were processed

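ATAC-seq libraries of MIN6 cells were grouped by the plasmid in the labels, 4 for each. The authors deposited 1 merged broad peak list per plasmid. Per the submitters' processing notes, FastQC, Bowtie2, MACS2, DiffBind and mm10 were used, with no versions. Read filters, duplicate handling and transposase shift are not given in the sources used here. The authors deposited, beside each position, the fold enrichment (a ratio to local background), −log10 p, −log10 q and a score of 10 times −log10 q, which was not used further. The smallest deposited −log10 q was 1.02 with the empty vector and 1.00 with Klf4. Peak positions were made 1-based.

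Peaks on chromosomes 1 to 19, X and Y were used, leaving out 165 and 188 on scaffolds. Genes, strands and promoters came from RefSeq tables of GRCm38.p6, the assembly that mm10 names. All 6 genes matched. Covered length is the part of a window under peaks, and calls are at 1.5-fold with 500 bp added. Named peaks are the strongest per gene and list, those at starts, and list-specific ones with −log10 q of at least 5. Of each gene list the 3 highest and 3 lowest are named, and a few named by these rules are not reported here. Members, lists and rules were chosen with earlier results of these data known, and HNF1 letters were added after seeing the promoters. Peak matching and covered length were checked on simulated data. Alternatives varied thresholds, widths, overlap, windows and genes. Tables were made in pandas 2.3.3 and numpy 2.4.6, intervals in scipy 1.17.1 and plots in matplotlib 3.10.9, all under Python 3.11.15.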

Additional observations from a re-analysis of the deposited data

How the results depend on the processing

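No paired analysis was possible because neither list holds values per library, and for that reason no replicate was left out. The gained share over the 6 genes, 35.9%, fell to 25% when −log10 q had to reach 20 and to 0% among the 20000 strongest peaks of each list (0 of 10 peaks), and was 47.9% when both peaks had to be covered by 50%. Leaving out 1 gene at a time gave 26.7% (without Tcf7l2) to 44.3% (without Cdkal1). The lost share, 22.2%, was 33.9% once peaks under 500 bp were left out, 36.8% under the 50% overlap rule, and ran from 16.9 to 24.1% without 1 gene. The ratio of covered lengths, 1.18, came to 1.26 when −log10 q had to reach 5 and to 1.10 in gene bodies alone. It reversed to 0.734 with the top 20000 peaks, where 10 Klf4 peaks were left, and ran from 1.04 (without Tcf7l2) to 1.39 (without Cdkal1). The cause was not tested. Of matched pairs 34.1% were wider with Klf4, which was 20% with the top 20000 peaks and ran from 31.7 to 38.9% without 1 gene. The number of starts covered with Klf4 alone, 1, became 2 under the limit of 5 or with a peak within 250 bp, and 0 under the limit of 20 or with the top 20000 peaks. These settings for starts were chosen after seeing the data. Of 48 values for single genes, 35 stayed on their side of 1.5-fold, 8 passed it (6 upward, and Glis3 and Cdkal1 downward with the top 20000 peaks) and 5 fell under it, and no called one changed sign. A limit on strength or width acts on both lists, so a peak can also count as gained because its partner was removed. Shares over the whole lists were not computed under the alternative settings. Whether a changed value is particular to these genes can therefore not be told.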

Other observations

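Across coding genes, annotated starts covered in the Klf4 list alone, as the downstream Hnf4a start was, held the letters CACCC or GGGTG in 80.0% of 1457 promoters. Starts covered in both lists held them in 64.4% of 12004, and starts covered in neither in 48.1% of 7622. Letters at starts covered in the empty vector list alone were not counted. For GC boxes the shares were 51.1%, 67.8% and 11.8% in the same order, and for GTTAAT or ATTAAC 4.67%, 3.92% and 10.1%. Promoters of the same gene share sequence, peaks were chosen by position alone, and what the differences stand for was not tested.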
